A study of Homo sapiens with 3 samples.

Results

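Knockdown of PRAME was compared directly with knockdown of BAP1 in A375SM melanoma cells, using the shPRAME and shBAP1 RNA-seq libraries. These are 2 of the 3 libraries of the series, and the members were fixed by their labels alone, not by any measured value. The comparison covered the 11956 of 24424 genes whose mean raw count over the 3 libraries was at least 50. The library of the control population, shEmpty, entered the count minimum and the scaling. Its level is printed beside each gene but was not used to call a difference.

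A375SM is a metastatic human melanoma line derived from A375. Cells were transduced with lentiviral short hairpin RNA vectors that carry a green fluorescent protein reporter, and the fluorescent cells were kept as stable populations. They grew in DMEM with fetal bovine serum, and messenger RNA libraries were directional and read as pairs. The shPRAME population carried a hairpin against PRAME (PRAME knockdown), the shBAP1 population a hairpin against BAP1 (BAP1 knockdown) and shEmpty a control vector. The sources differ on that control, which appears once as a non-targeting hairpin and once as a wild-type genotype. Only 1 hairpin and 1 population stood for each target. Off-target effects of that hairpin and effects of losing the target cannot be told apart. The study compared each knockdown with the control. Setting the knockdowns against each other asks where their transcripts differ.

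PRAME is a cancer-testis antigen, silent in most adult tissues and abundant in many melanomas. Its leucine-rich repeat protein is a substrate receptor of the CUL2 ubiquitin ligase and is known to repress transcription at retinoic acid receptors. BAP1 encodes a nuclear deubiquitinase that, with ASXL proteins, removes ubiquitin from histone H2A at sites marked by Polycomb repressive complex 1, and it is a tumour suppressor lost in uveal melanoma and mesothelioma.

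Read totals were 18456328 in shPRAME, 14181829 in shBAP1 and 19430130 in shEmpty, with a count for 17980, 17505 and 17386 genes. Levels are CPM (counts scaled to a common library size, after TMM adjustment), and a set of 3 CPM values or counts is always in the order shPRAME, shBAP1, shEmpty. CPM values grow with transcript length, so ratios were taken between libraries and never between genes. Rankings by CPM difference, groups by mean CPM and sums over genes therefore also depend on transcript length. A call needed a ratio of scaled counts of 2-fold or more whose exact 95% interval did not reach 1. A log2 ratio above 0 means a higher level in shPRAME. The interval stands in parentheses after a fold where either library had fewer than 100 counts. For the 313 named genes with at least 100 counts in both, the upper bound was at most 27.0% above the fold. A count of 0 allows up to 3 counts (0.164 CPM in shPRAME, 0.202 in shBAP1, 0.160 in shEmpty), and a fold against it is a lower bound. With a single library in each group there is no replicate to set a difference against, and p-values were not computed. A call therefore holds for these libraries, not for the knockdowns in general, and intervals and floors cover counting error only. Whether the counting used strand is not stated, so overlapping, antisense and near-identical genes (HLA, MAGE, PAGE and ribosomal protein families among them) are uncertain. In RNA from a whole population, fewer cells that express a gene and less RNA per cell cannot be told apart.

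Each targeted gene was lowest in the library with its own hairpin. PRAME stood at 108 CPM in shPRAME, 455 in shBAP1 and 327 in shEmpty. It was 4.23-fold higher in shBAP1 than in shPRAME (4.02 to 4.45), and the control lay between them. BAP1 stood at 97.9 CPM in shPRAME, 35.2 in shBAP1 and 100.0 in shEmpty. It was 2.78-fold higher in shPRAME (2.52 to 3.08), where its level was close to that of the control. The labels of both knockdown libraries therefore matched their targets, and neither transcript was removed completely.

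The libraries differed widely in both directions, and the largest differences lay toward higher levels in shPRAME. Of the 11956 measured genes 3006 were called different (25.1%). The shPRAME library was the higher for 1702 of them (14.2% of measured genes) and shBAP1 for 1304 (10.9%). At a limit of 8-fold the counts were 314 and 119, and at 64-fold they were 64 and 22. The median log2 ratio over all measured genes was -0.06, with quartiles of -0.57 and 0.54. Scarce genes were called most often: 38.7% of those with a mean below 10 CPM were called, against 22.5% between 10 and 100 CPM. The share was 21.7% between 100 and 1000 CPM and rose to 30.1% of the 73 genes at 1000 CPM or more.

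**Figure D1:**
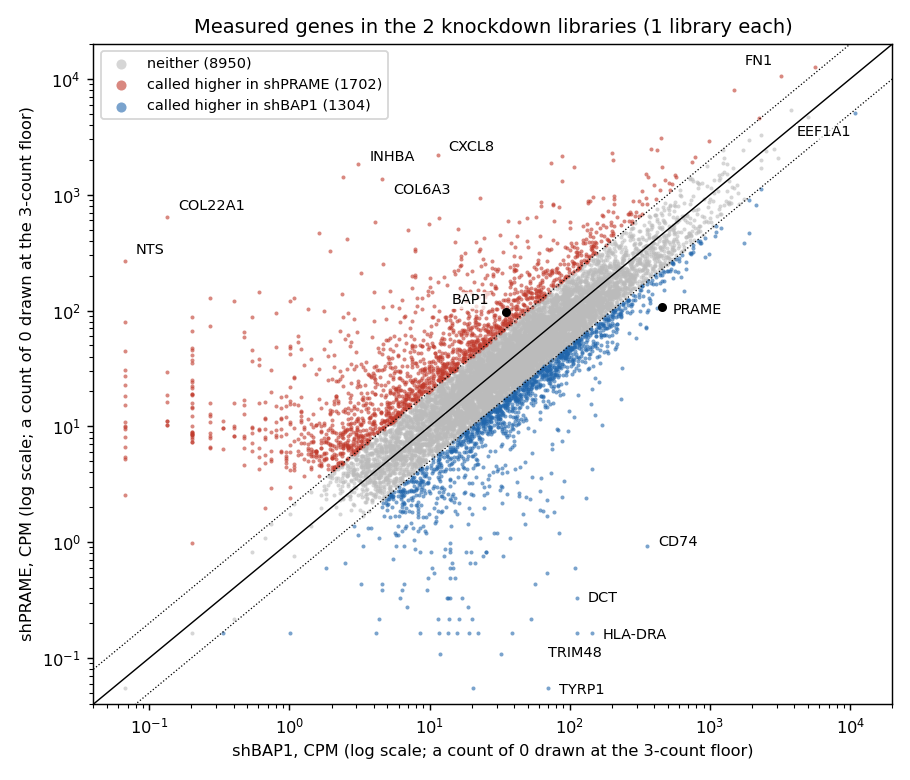
Level of each measured gene in shBAP1 (horizontal, CPM, log scale) against shPRAME (vertical, CPM, log scale), 1 point a gene, with red for the 1702 genes called higher in shPRAME, blue for the 1304 called higher in shBAP1 and black for PRAME and BAP1. The solid line marks equal levels and the dotted lines 2-fold; PRAME lies below the band and BAP1 above it.

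The control lay between the knockdown libraries for most called genes, so the direct ratio was larger than either ratio to the control. Of the 1702 genes higher in shPRAME, shEmpty lay between the knockdowns for 1277 (75.03%), and of the 1304 higher in shBAP1 for 859 (65.9%), beside 45.9% of all measured genes. A wide gap leaves more room for the control inside it, so calling raises these shares by construction. Among the genes higher in shPRAME, 526 lay at least 2-fold from shEmpty in shPRAME alone, 463 in shBAP1 alone, 312 in both and 401 in neither. Among those higher in shBAP1 the numbers were 530, 204, 142 and 428. The 401 and 428 genes at under 2-fold from the control in both libraries reached that limit only when the knockdowns were set against each other.

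COL22A1, NTS and INHBA ranked highest among the genes higher in shPRAME. Ranking was by the bound of the interval nearest to no change. In all 15 the control lay between the knockdowns, with shBAP1 the lowest library. Ranking by a wide gap favours that place. COL22A1, a collagen of tissue junctions, had 11642, 2 and 166 counts and was 4726-fold (1308 to 39033) higher in shPRAME. NTS, the precursor of the peptide neurotensin, had 4902, 1 and 6 counts and was 3980.3-fold (714 to 157244) higher. INHBA, the subunit of activin A, stood at 1825, 3.10 and 99.6 CPM, a difference of 589-fold (441 to 805). COL22A1 and NTS were thus under the detection floor in shBAP1, while INHBA was low there but detected. COL6A3, a chain of collagen VI, stood at 1363, 4.58 and 556 CPM and was 298-fold (235 to 383) higher. CXCL8, the neutrophil chemoattractant interleukin 8, stood at 2208, 11.5 and 51.9 CPM and was 193-fold higher. PTGES, the terminal synthase of prostaglandin E2, stood at 143, 0.606 and 31.01 CPM and was 236-fold (124 to 517) higher. The control lay nearer to shPRAME for COL6A3 and nearer to shBAP1 for CXCL8. STC1 (stanniocalcin, a secreted glycoprotein hormone) was 288-fold (194 to 450.1) higher and DIO2, the deiodinase that activates thyroid hormone, 434-fold (148 to 2105). MXRA5, a matrix-remodelling protein, and SERTM1 had no count in shBAP1. The bounds were at least 224-fold for MXRA5 and at least 233-fold for SERTM1. VAT1L was 580.3-fold (419 to 829) higher, RELN (reelin, which guides migrating neurons) 478-fold (187 to 1757), FGL2 (a secreted fibrinogen-like protein) 300.4-fold (138 to 819.5) and TAGLN3 (a neuronal transgelin) 664-fold (119 to 26266). COL22A1 and STC1 lie on chromosome 8, whose genes as a whole were higher in shPRAME.

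TRIM48, HLA-DRA and CD74 ranked highest among the genes higher in shBAP1. TRIM48, a tripartite-motif gene, had 0, 1658 and 9 counts and was at least 681-fold higher in shBAP1. FBXL7, an F-box substrate receptor, had 0, 328 and 0 counts, and CELF2, a splicing regulator, had 1, 303 and 1 counts. Their folds were at least 135-fold and 373-fold (66.5 to 14787). These genes were at 0 to 9 counts in both other libraries. FBXL7 had no count in either of them, so its control level is tied with shPRAME. SOHLH2, a germ-cell transcription factor, stood at 0.219, 52.7 and 0.0534 CPM and was 241-fold (93.7 to 886) higher. PAGE5, a cancer-testis gene, stood at 0.602, 109 and 63.7 CPM and was 182-fold (101 to 365) higher. COL8A1, a collagen of vessel walls and basement membranes, stood at 0.438, 56.4 and 0.854 CPM and was 129-fold (65.1 to 299) higher. PAGE5 was thus present in the control and low in shPRAME, whereas SOHLH2 and COL8A1 were high in shBAP1 alone. TNFSF13B, the B-cell survival factor BAFF, was at least 82.9-fold higher, the long noncoding RNA LINC00520 297-fold (81.7 to 2458) and the pseudogene FRG2DP 126-fold (68.1 to 263). The other members of the 15 were TYR, TYRP1, DCT, CD74, HLA-DRA and HLA-DRB1, described with their groups. DCT, SOHLH2 and TNFSF13B, 3 of the 15, lie on chromosome 13, whose genes as a whole were lower in shPRAME.

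**Figure D2:**
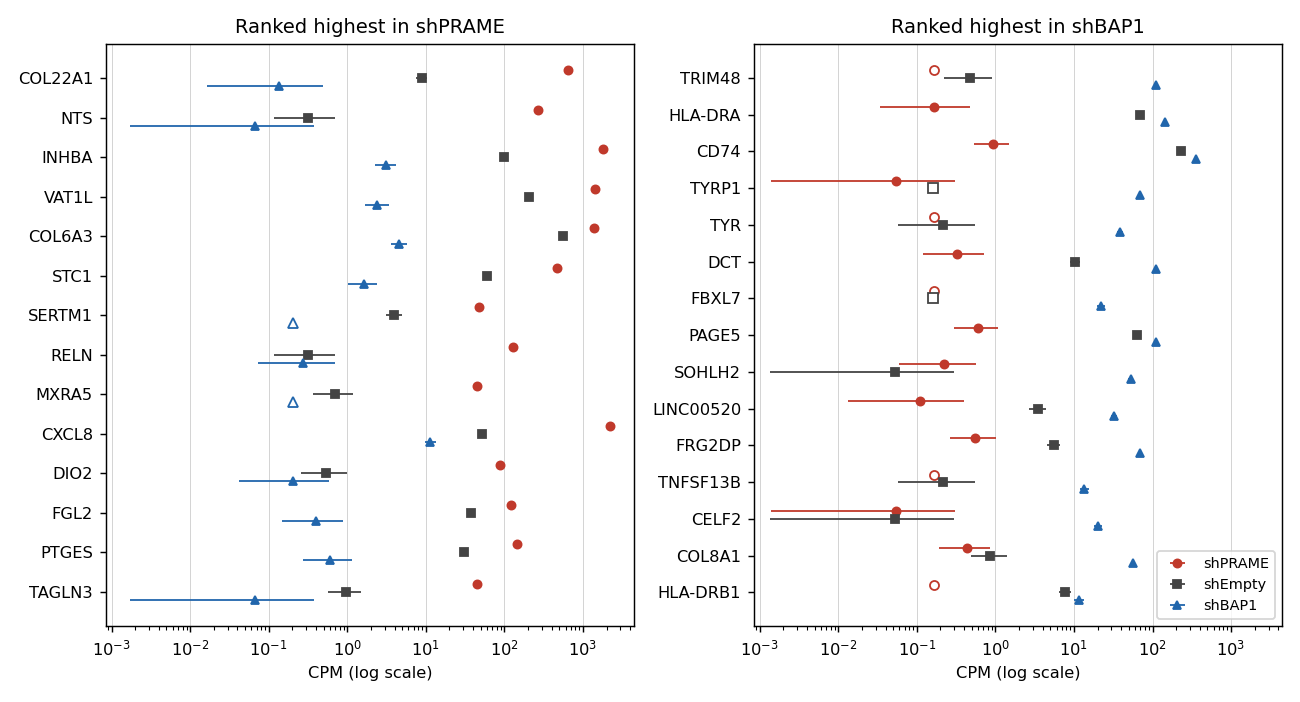
Levels (CPM, log scale) of 14 of the 15 genes ranked highest in shPRAME (left) and the 15 ranked highest in shBAP1 (right), measured in shPRAME (red circles), shEmpty (grey squares) and shBAP1 (blue triangles), 1 library each, with exact 95% counting intervals as bars and open symbols at the 3-count floor where no read was counted. In the left panel every grey square lies between the other symbols, while in the right panel shEmpty is at 0 to 3 counts for 4 genes.

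By the number of reads rather than the ratio, other genes stood out. The largest CPM differences toward shPRAME were those of fibronectin (FN1, 10557, 3205 and 1361 CPM) and the protease inhibitor SERPINE2 (12659.9, 5616 and 6020.5 CPM). SERPINA3, an acute-phase protease inhibitor, stood at 7985, 1494 and 3106 CPM and the melanoma-associated proteoglycan CSPG4 at 3095, 447 and 1295 CPM. HAPLN1, which links hyaluronan to proteoglycans, was 24.6-fold higher in shPRAME, and SLC5A3, the myo-inositol transporter, 11.5-fold. IL13RA2, a decoy receptor for interleukin 13, was 5.77-fold higher. All of these except FN1 had the control between the knockdowns, and FN1 was lowest in shEmpty. Toward shBAP1 many of the largest differences belonged to housekeeping transcripts. EEF1A1, the translation elongation factor, stood at 5094, 10771 and 8137 CPM and was 2.11-fold higher in shBAP1. The ferritin heavy chain FTH1 (469, 1881 and 1151 CPM) was 4.01-fold higher, and thrombospondin THBS1 (386, 1757 and 451 CPM) 4.55-fold. PPIA (cyclophilin A) was 2.58-fold higher, the chaperones HSPA8 and HSPD1 2.06-fold and 2.45-fold, the nucleolar protein NPM1 2.11-fold and the tubulin TUBA1B 2.32-fold. Apart from FTH1 and THBS1 these folds were under 3-fold. GPNMB and FTL, described with their groups, complete the 10.

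Genes were then described in 49 lists of pathways and cell type markers, of which 46 had at least 5 measured members. The lists were chosen with earlier results of these data known. Their shares therefore describe these libraries and give no independent support. The lists share genes (INHBA, for example, is in the lists of TGF-beta and of the invasive state), so their counts are not independent. The median log2 ratio was above 0.5 in 14 lists and below -0.5 in 8. Shares called in a list are to be read beside those of all measured genes, 14.2% higher in shPRAME and 10.9% in shBAP1. The pathway lists with the highest medians were those of collagens, TGF-beta, homeobox regulators and matrix glycoproteins. The lowest among pathway lists belonged to MHC class II, mitosis and ribosomal proteins. A gene can pass the count minimum through a single library where it is high. Without that minimum the collagen and homeobox medians were 0.29 and 0.51.

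**Figure D3:**
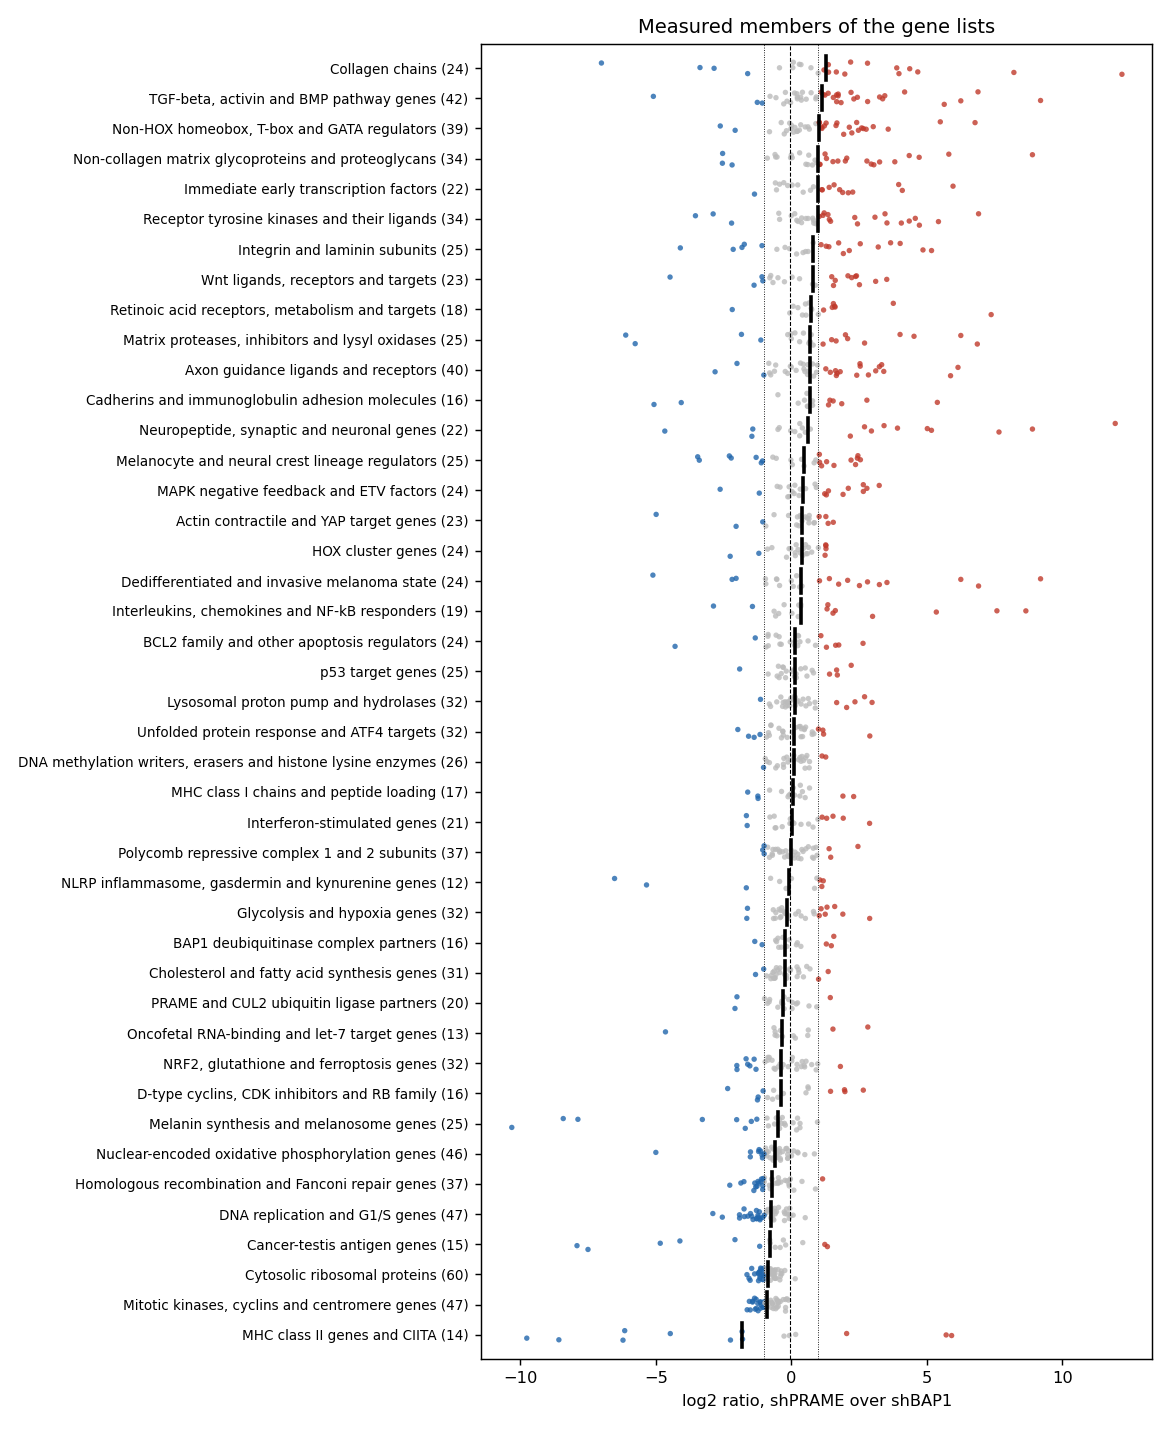
Log2 ratio of shPRAME over shBAP1 (horizontal) for each measured member of each list (number in parentheses), with red points called higher in shPRAME, blue points called higher in shBAP1, grey points called in neither direction and a black bar at the list's median. The dashed line is the median of all measured genes and the dotted lines mark 2-fold; the collagen bar stands at 1.29 and the MHC class II bar at -1.81.

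Pigment-cell genes separated the libraries, with reads of the enzymes of melanin synthesis concentrated in shBAP1. Of 32 listed genes of melanin synthesis and melanosomes 25 were measured. None was called higher in shPRAME and 8 were called higher in shBAP1 (32%, beside 10.9% of all genes), with a median of -0.49. TYR, tyrosinase, the enzyme that starts melanin synthesis, had 0, 573 and 4 counts. TYRP1, which acts on its product, had 1, 1037 and 0 counts. DCT, dopachrome tautomerase, had 6, 1668 and 192 counts. Reads of TYR and TYRP1 were thus almost confined to shBAP1, while DCT was also well detected in the control. The folds toward shBAP1 were at least 235-fold for TYR, 1277-fold (229 to 50492) for TYRP1 and 342-fold (157 to 934) for DCT. TYR and TYRP1 passed the count minimum only through shBAP1. The melanosome structural gene PMEL, below the minimum, had 8, 34 and 6 counts, and MLANA, chosen after its values were seen, had 7, 19 and 3.

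Promoter sequences of TYR and TYRP1 are shown because both enzymes are textbook targets of MITF, the master transcription factor of the pigment lineage, which binds E-boxes of the form CATGTG. Each is the 250 bases before the RefSeq start, on the plus strand of GRCh38.p14 (chr11:89177625-89177874 for TYR, chr9:12693135-12693384 for TYRP1). This build is newer than the hg19 assembly of the counts and served for sequence alone. Capitals mark CATGTG on either strand.
TYR: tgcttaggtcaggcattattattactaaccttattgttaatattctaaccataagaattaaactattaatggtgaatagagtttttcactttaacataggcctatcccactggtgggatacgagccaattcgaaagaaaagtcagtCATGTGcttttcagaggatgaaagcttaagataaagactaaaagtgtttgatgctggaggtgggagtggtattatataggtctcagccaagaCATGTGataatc
TYRP1: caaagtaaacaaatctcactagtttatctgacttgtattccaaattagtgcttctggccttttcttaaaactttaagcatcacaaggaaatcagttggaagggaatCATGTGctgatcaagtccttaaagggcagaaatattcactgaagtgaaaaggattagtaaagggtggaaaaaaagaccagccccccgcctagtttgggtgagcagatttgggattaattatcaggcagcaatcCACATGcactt
The TYR window held the motif at positions -104 and -12 before the start and the TYRP1 window at -144 and -11. The DCT window held none, which says only that these letters are not in those 250 bases. The motif lay in 5 of the 22 melanin-list genes with a promoter in the table (22.7%), in 5.36% of all measured genes with one and in 9.54% of all 27305 promoters. It lay in 6.24% of the promoters of genes called higher in shPRAME and 6.83% of those higher in shBAP1, which are like shares. A match is a description of sequence, and no binding was measured.

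Other melanosome genes differed less, as did the regulators MITF and SOX10. GPNMB, a melanosomal glycoprotein, stood at 305, 989.7 and 788 CPM and was 3.25-fold higher in shBAP1. RAB38, which carries TYR and TYRP1 to melanosomes, stood at 4.92, 47.96 and 64.6 CPM and was 9.74-fold (7.82 to 12.3) higher. CAPN3, a calpain known as an MITF target, stood at 9.19, 37.2 and 29.99 CPM and was 4.05-fold higher. For these genes shBAP1 was near the control and shPRAME stood apart. AP1S2, an adaptor subunit of vesicle traffic, stood at 139, 387 and 205 CPM and was 2.78-fold higher in shBAP1. MITF itself stood at 114, 239 and 309.9 CPM, highest in the control, and was 2.09-fold higher in shBAP1. SOX10, its upstream activator, stood at 657, 367 and 506 CPM and was called in neither direction (log2 ratio 0.84). TYR, TYRP1 and DCT were lower in shPRAME than in shBAP1, as was MITF, while SOX10 was not called. MITF was at its highest in shEmpty, where TYR and TYRP1 had few or no counts. A part of MITF in these differences was not tested.

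Regulators of the melanocyte and neural crest lineage were called in both directions. Of 25 measured genes 10 were higher in shPRAME (40%, beside 14.2% of all genes) and 7 higher in shBAP1 (28%), with a median of 0.47. The repressors ZEB1 and SNAI2, which drive mesenchymal states, were 5.86-fold and 5.50-fold higher in shPRAME. ID1, an inhibitor of basic helix-loop-helix factors, was 5.43-fold higher and LEF1, a nuclear effector of Wnt signalling, 5.18-fold. The others higher in shPRAME were SOX5, TFAP2B, SNAI1, TWIST1, MSX1 and ID3. On the other side FOXD3, a neural crest specifier, stood at 3.01, 33.01 and 7.15 CPM and was 10.97-fold (8.29 to 14.8) higher in shBAP1. TFAP2A, a neural crest and pigment regulator, stood at 7.11, 74.9 and 23.96 CPM and was 10.5-fold higher. EDNRB, the endothelin receptor of melanoblasts, was 2.46-fold higher, with the control below both. The others higher in shBAP1 were MITF, SOX6, ZEB2 and ETS1. IRF4, a pigment regulator below the count minimum, had 1, 52 and 18 counts. SNAI2 lies on chromosome 8, EDNRB on chromosome 13 and TFAP2A on chromosome 6, whose medians were shifted in the same direction as these genes. With the median of its chromosome subtracted from each gene, an alternative chosen after seeing the data, the log2 ratio of EDNRB went from -1.30 to -0.55, inside 2-fold. Those of SNAI2 (2.46) and TFAP2A (-3.40) went to 1.87 and -3.04 and stayed beyond it.

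The activin, TGF-beta and BMP pathway leaned toward shPRAME, with ligands, inhibitors and targets among the genes higher there. Of 53 listed genes 42 were measured, and 22 were higher in shPRAME (52.4%) against 3 higher in shBAP1, with a median of 1.14. The control lay between the knockdowns for 20 of the 22. The list's median was 0.50 for shPRAME over shEmpty and -0.78 for shBAP1 over shEmpty, so both libraries contributed. Among ligands, INHBA led as given above, BMP6 stood at 48.95, 2.69 and 14.9 CPM and was 18.2-fold (13.2 to 25.6) higher, and GDF15, a stress-induced member of the family, was 3.19-fold higher. Among receptors and signal carriers, BMPR2 was 3.19-fold higher and SMAD9, a BMP effector on chromosome 13, had 185, 3 and 57 counts and was 50.1-fold (16.9 to 245) higher. The BMP antagonist CHRDL1 stood at 128, 1.08 and 0.107 CPM and was 119-fold (73 to 208) higher. CHRDL1 was high in shPRAME and low in both shBAP1 and shEmpty. FSTL5, a follistatin-like gene, went the other way, with 20, 554 and 0 counts and a level 34.1-fold (21.9 to 56.3) higher in shBAP1. TGFB2, below the minimum, had 19, 82 and 44 counts.

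**Figure D4:**
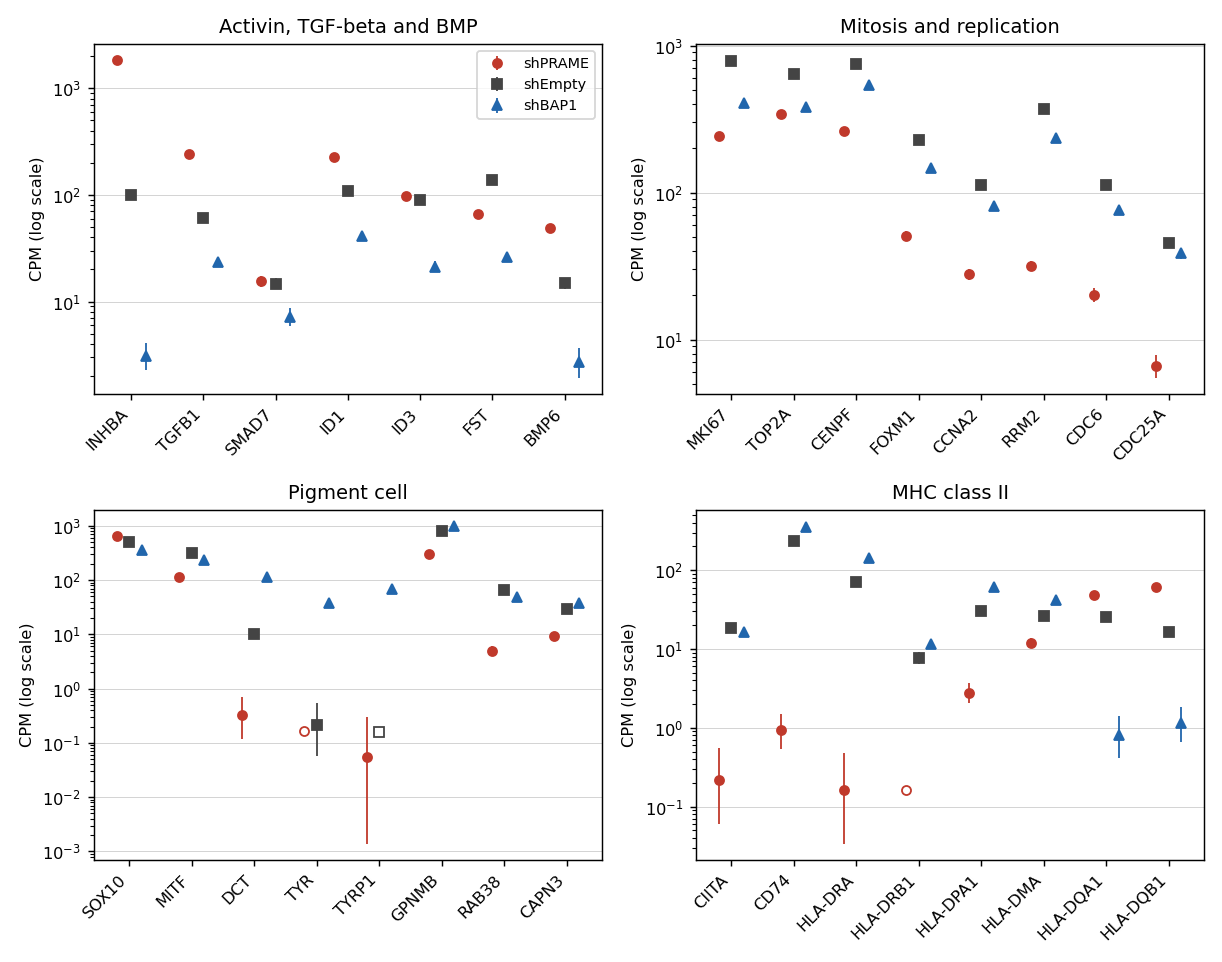
Levels (CPM, log scale) of chosen members of 4 lists in shPRAME (red circles), shEmpty (grey squares) and shBAP1 (blue triangles), 1 library each, with exact 95% counting intervals and open symbols at the 3-count floor for a count of 0; the members were chosen after their values were seen. Each gene of the activin panel stands higher in shPRAME than in shBAP1 (FST, SMAD7 and ID3 near or below the control), mitotic genes stand lowest in shPRAME, TYR and TYRP1 are high in shBAP1 alone, and HLA-DQA1 and HLA-DQB1 run opposite to HLA-DRA.

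Extracellular matrix genes were more often higher in shPRAME than in shBAP1, across chains, glycoproteins and receptors. Of 24 measured collagen chains (of 41 listed) 13 were higher in shPRAME (54.2%) and 4 in shBAP1 (16.7%), with a median of 1.29, the highest of the lists plotted. Without a count minimum the collagen median was 0.29. COL6A2, a partner of COL6A3 in collagen VI, stood at 1876, 73.8 and 281 CPM and was 25.4-fold higher. COL9A2, a cartilage collagen chain, stood at 128, 8.15 and 15.6 CPM and was 15.7-fold higher. COL15A1, a basement membrane collagen, stood at 156, 7.54 and 349 CPM and was 20.7-fold higher in shPRAME, although both knockdowns lay below the control. COL1A2, a chain of collagen I, stood at 670.0, 170.4 and 6.35 CPM and was 3.93-fold higher, with both knockdowns above the control. COL15A1 and COL1A2 thus shared a direction between the knockdowns without sharing one against the control. COL8A1 was the strongest exception, and COL5A2 (900.4, 733 and 238 CPM) was called in neither direction. Below the minimum, COL3A1 had 13, 66 and 1 counts and COL4A5 129, 17 and 1 counts.

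Among 34 measured matrix glycoproteins and proteoglycans 17 were higher in shPRAME (50%) and 3 in shBAP1, with a median of 1.00. Biglycan (BGN), a small proteoglycan, stood at 98.6, 1.75 and 81.1 CPM and was 56.3-fold (38.3 to 86.4) higher in shPRAME. Elastin (ELN) stood at 33.7, 1.28 and 21.3 CPM and was 26.4-fold (16.7 to 44.1) higher. For both, shPRAME was near the control and shBAP1 far below it. LTBP2, which associates with elastic fibres, showed the other pattern at 32.3, 3.37 and 4.27 CPM and was 9.58-fold (7.17 to 13.1) higher. IGFBP3, which binds insulin-like growth factors, was 14.1-fold higher, fibulin FBLN1 20.4-fold (9.17 to 56.6) and tenascin C (TNC) 2.06-fold. SPARC, a collagen-binding glycoprotein, was called in neither direction (2963, 1895 and 2864 CPM). THBS1 was higher in shBAP1, and so was IGFBP7, by 5.80-fold (3.71 to 9.42).

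Matrix receptors followed the same direction with exceptions by subunit. Of 25 measured integrin and laminin genes 12 were higher in shPRAME (48%) and 5 in shBAP1 (20%), with a median of 0.81. The shares of all measured genes were 14.2% and 10.9%. The collagen-binding integrin chains ITGA11, ITGA10 and ITGA1 were 36.2-fold (26.4 to 51.1), 16.2-fold and 12.7-fold higher in shPRAME. Laminin LAMA2 stood at 66.6, 2.29 and 0.907 CPM and was 29.1-fold (20.7 to 42.2) higher, and LAMA4 was 3.79-fold higher. LAMA1, the embryonic laminin chain, ran opposite at 3.61, 61.8 and 166 CPM and was 17.1-fold (13.3 to 22.3) higher in shBAP1. The shared laminin chains LAMB1 and LAMC1 were called in neither direction (log2 ratios 0.53 and -0.07).

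Matrix proteases and their inhibitors divided by enzyme. Of 25 measured genes 10 were higher in shPRAME (40%) and 4 in shBAP1, with a median of 0.71. The inhibitor TIMP1 stood at 1737, 107 and 324 CPM and was 16.2-fold higher in shPRAME. The aggrecanase-family genes ADAMTS6 (94.3, 0.808 and 8.22 CPM) and ADAMTS9 (107, 4.65 and 60.4 CPM) were 117-fold (66.6 to 226) and 23.1-fold (18.2 to 29.8) higher. Their relative ADAMTS1 stood at 1.20, 83.3 and 32.2 CPM and was 69.2-fold (45.5 to 111) higher in shBAP1. MMP8, a collagenase, stood at 2.41, 131 and 8.43 CPM and was 54.3-fold (40.3 to 75.02) higher in shBAP1. ADAMTS6 and ADAMTS1 thus differed by over 50-fold in opposite directions. CTSB, cathepsin B, on chromosome 8, was 6.52-fold higher in shPRAME.

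Of 16 measured cadherins and immunoglobulin adhesion molecules 6 were higher in shPRAME (37.5%) and 2 in shBAP1 (12.5%). The shares of all measured genes were 14.2% and 10.9%. The adhesion median was 0.70 (0.37 without a count minimum). NRCAM, a neuronal adhesion molecule, stood at 328, 7.81 and 112 CPM and was 41.97-fold higher in shPRAME. Its family member L1CAM stood at 4.32, 145 and 3.63 CPM and was 33.6-fold (26.8 to 42.6) higher in shBAP1, and CADM1 was 16.7-fold higher there. N-cadherin (CDH2) was called in neither direction (179.7, 118 and 94.04 CPM). Among genes of dedifferentiated, invasive melanoma cells 11 of 24 measured genes were higher in shPRAME (45.8%) and 3 in shBAP1 (12.5%), with a median of 0.35. AXL, a receptor tyrosine kinase that marks that state, stood at 279.7, 24.2 and 35.01 CPM and was 11.6-fold higher in shPRAME. NGFR, the neurotrophin receptor that marks neural crest-like melanoma cells, stood at 1.86, 64.2 and 0.480 CPM and was 34.5-fold (24.5 to 50.1) higher in shBAP1. AXL and NGFR, both counted as dedifferentiation markers, therefore pointed to different libraries.

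Called cell cycle genes were lower in shPRAME than in shBAP1, and in most of them both knockdowns lay below the control. Of 47 measured DNA replication and G1/S genes none was higher in shPRAME and 20 were higher in shBAP1 (42.6%), with a median of -0.75. Of 47 mitotic genes none was higher in shPRAME and 18 were higher in shBAP1 (38.3%), with a median of -0.90 and a range from -1.63 to -0.10, so every member had the same sign. Against shEmpty the medians were -1.36 and -1.51 in shPRAME and -0.53 and -0.67 in shBAP1. The control lay above both knockdowns for 18 of the 20 replication calls and 17 of the 18 mitotic calls. RRM2, the small subunit of ribonucleotide reductase, stood at 31.8, 237 and 370.3 CPM and was 7.45-fold higher in shBAP1. CDC25A, a phosphatase that starts S phase, stood at 6.62, 38.7 and 45.7 CPM and was 5.84-fold higher. FOXM1, the transcription factor of mitotic genes, stood at 51.03, 146 and 229.7 CPM and was 2.86-fold higher. Each was highest in the control, intermediate in shBAP1 and lowest in shPRAME. KIF23, a kinesin of cytokinesis, was 3.09-fold higher in shBAP1, cyclin A2 (CCNA2) 2.93-fold and CENPF 2.03-fold. The proliferation marker MKI67 (242, 405 and 787 CPM) and TOP2A (342, 382 and 645 CPM) had the same order of levels but stayed within 2-fold between the knockdowns.

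Called DNA repair genes were also mostly lower in shPRAME, with the control above both knockdowns for 11 of the 14 higher in shBAP1. Of 37 measured genes of homologous recombination and the Fanconi pathway 1 was higher in shPRAME and 14 were higher in shBAP1 (37.8%), with a median of -0.73. POLQ, the polymerase of end joining at microhomologies, stood at 8.86, 42.8 and 39.7 CPM and was 4.83-fold higher in shBAP1. BRCA2, on chromosome 13, stood at 11.2, 40.8 and 44.6 CPM and was 3.63-fold higher, and the exonuclease EXO1 was 3.36-fold higher. BARD1, a partner of BRCA1 in histone H2A ubiquitination, stood at 7.33, 18.7 and 19.96 CPM and was 2.55-fold higher in shBAP1. The kinases ATM and ATR were called in neither direction (log2 ratios -0.49 and -0.73).

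Cell cycle brakes and accelerators of G1 were split between the libraries. Of 16 measured D-type cyclins, CDK inhibitors and RB family genes 4 were higher in each library (25%). Their median of -0.40 and mean of 0.06 differ in sign. Cyclin D1 (CCND1) stood at 844, 134 and 558 CPM and was 6.31-fold higher in shPRAME. Its partner kinase CDK6 stood at 58.03, 296 and 93.8 CPM and was 5.09-fold higher in shBAP1. The inhibitors CDKN1B (p27), CDKN1C (p57) and CDKN2A (p16 and p14ARF) were 2.73-fold, 3.90-fold (2.78 to 5.60) and 3.94-fold (2.45 to 6.64) higher in shPRAME. CDKN1A (p21) was called in neither direction, at 155, 190.2 and 102 CPM. Of 25 p53 targets 4 were higher in shPRAME (16%) and 1 in shBAP1 (4%), beside 14.2% and 10.9% of all measured genes (median 0.12). The widest were PHLDA3 (4.63-fold higher in shPRAME) and CCNG1 (3.75-fold higher in shBAP1). Of 24 BCL2 family genes and apoptosis regulators 5 were higher in shPRAME (20.8%) and 2 in shBAP1 (8.33%, median 0.13). BCL2, the survival protein itself, stood at 0.547, 10.7 and 15.3 CPM and was 19.6-fold (10.4 to 41.6) higher in shBAP1, whereas its relative BCL2A1 was 3.11-fold higher in shPRAME.

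MHC class II genes showed the lowest list median and also a split within the locus. Of 14 measured genes 8 were higher in shBAP1 (57.1%) and 3 higher in shPRAME (21.4%), with a median of -1.81. CIITA, the transactivator on which class II transcription depends, stood at 0.219, 16.2 and 18.5 CPM and was 74.2-fold (28.6 to 275) higher in shBAP1. CD74, the invariant chain, stood at 0.930, 356 and 232 CPM and was 383-fold (239 to 658) higher. HLA-DRA, the class II alpha chain, had 3, 2120 and 1311 counts and was 870.3-fold (297 to 4224) higher, and HLA-DRB1 had 0, 173 and 144 counts and was at least 71.02-fold higher. These genes were near or above the control level in shBAP1 and at 0 to 17 counts in shPRAME. HLA-DQA1 and HLA-DQB1 ran opposite. They stood at 48.9, 0.808 and 25.8 CPM and 60.2, 1.15 and 16.3 CPM and were 60.5-fold (34.5 to 118) and 52.6-fold (32.7 to 90.6) higher in shPRAME. The DQ pair was thus highest in the library where CIITA and HLA-DRA were lowest. HLA genes are polymorphic and near-identical to each other, so the counting could misassign their reads. They lie on chromosome 6, whose median of -0.42 was shifted toward shBAP1, while CIITA (chromosome 16) and CD74 (chromosome 5) lie elsewhere.

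Class I genes and interferon targets differed less. Of 17 measured class I and peptide-loading genes 2 were higher in shPRAME (11.8%, beside 14.2% of all genes) and 3 in shBAP1 (17.6%, beside 10.9%), with a median of 0.08. The heavy chains HLA-B (341, 69.1 and 244 CPM) and HLA-C (385, 103 and 253 CPM) were 4.93-fold and 3.75-fold higher in shPRAME. The immunoproteasome subunits PSMB8 and PSMB10 and the peptide transporter TAP2 were 3.05-fold, 2.34-fold (1.80 to 3.06) and 2.35-fold higher in shBAP1. Of 21 interferon-stimulated genes 5 were higher in shPRAME (23.8%) and 2 in shBAP1 (9.52%, median 0.04). IRF7, a master factor of interferon induction, was 7.41-fold (5.11 to 11.1) higher in shPRAME and IFIT3, an antiviral effector, 3.09-fold higher in shBAP1.

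Interleukins, chemokines and intracellular NF-kB genes formed the next list. Of 19 measured genes (of 45 listed) 8 were higher in shPRAME (42.1%) and 2 in shBAP1, with a median of 0.35. The called members that are not secreted were NFKB2, RELB and IRAK2, higher in shPRAME, and NFKBIZ, higher in shBAP1. LIF, a cytokine of the interleukin 6 family, stood at 939, 22.97 and 95.3 CPM and was 40.9-fold higher. IL11, of the same family, had 498, 1 and 26 counts and was 404-fold (72.2 to 16003) higher. CX3CL1 (fractalkine) was 8.002-fold (6.16 to 10.6) higher. IL24, first found in melanoma cells induced to differentiate, stood at 3.23, 23.6 and 0.374 CPM and was 7.33-fold (5.55 to 9.83) higher in shBAP1. Below the minimum, IL1A had 90, 5 and 12 counts and IL1B 58, 2 and 6 counts. With CXCL8, the family members LIF and IL11 gave the widest gaps, and the control lay between the knockdowns for each.

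The CXCL8 promoter is shown because it is a textbook target of AP-1 and NF-kB. Capitals mark the AP-1 motif TGANTCA, searched on both strands, in the 250 bases before the RefSeq start (GRCh38.p14, chr4:73740319-73740568, plus strand).
CXCL8: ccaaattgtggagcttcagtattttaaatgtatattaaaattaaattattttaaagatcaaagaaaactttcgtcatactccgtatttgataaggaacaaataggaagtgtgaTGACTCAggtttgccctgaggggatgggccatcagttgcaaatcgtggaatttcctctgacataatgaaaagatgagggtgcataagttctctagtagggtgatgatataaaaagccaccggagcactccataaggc
The motif stood at position -137 before the start. It lay in 4.81% of the promoters of genes called higher in shPRAME, 5.35% of those higher in shBAP1, 3.69% of all measured genes with a promoter and 6.60% of all promoters in the table. Genes called in the opposite directions therefore held it at like shares.

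Immediate early transcription factors leaned toward shPRAME. Of 22 measured genes 11 were higher in shPRAME (50%) and 1 in shBAP1, with a median of 0.97. EGR1, a zinc finger factor induced by growth signals, stood at 419, 24.5 and 155 CPM and was 17.1-fold higher. EGR2 stood at 38.01, 0.606 and 9.39 CPM and was 62.7-fold (32.8 to 138) higher, and EGR3, on chromosome 8, was 15.6-fold higher. JUNB, an AP-1 subunit, was 3.72-fold higher. The EGR genes spanned the control in the same way, above it in shPRAME and below it in shBAP1. KLF6 was 2.57-fold higher in shBAP1, and ATF3, below the minimum, had 10, 60 and 58 counts.

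Genes that report and restrain MAPK signalling leaned the same way. Of 24 measured genes 9 were higher in shPRAME (37.5%) and 2 in shBAP1, with a median of 0.43. The ERK phosphatases DUSP6 and DUSP5 stood at 875, 139 and 246 CPM and 157, 16.6 and 43.8 CPM and were 6.32-fold and 9.48-fold higher in shPRAME. SPRY4, a feedback inhibitor, was 2.45-fold higher and SPRED3 6.92-fold. EPHA2, an ephrin receptor, ran opposite at 3.23, 19.9 and 6.24 CPM and was 6.18-fold (4.66 to 8.32) higher in shBAP1. PHLDA1, another ERK-responsive gene, was called in neither direction (log2 ratio 0.88).

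Receptor tyrosine kinases were called higher in shPRAME more often than in shBAP1. Of 34 measured receptors and ligands 17 were higher in shPRAME (50%) and 3 in shBAP1, with a median of 0.97 (0.38 without a count minimum). EGFR, the epidermal growth factor receptor, stood at 122, 1.01 and 23.5 CPM and was 120.5-fold (72.9 to 216) higher. FGFR1, on chromosome 8, stood at 110.2, 5.39 and 26.8 CPM and was 20.5-fold (16.4 to 25.9) higher, and PDGFRA stood at 24.4, 2.22 and 14.04 CPM and was 11-fold (7.72 to 16.2) higher. EPHB2, an ephrin receptor, was 43.2-fold higher and the ligand HGF 23.9-fold (12.8 to 50.3). For each of these the control lay between the knockdowns. FLT1, a receptor of vascular endothelial growth factor on chromosome 13, stood at 6.40, 74.4 and 49.3 CPM and was 11.6-fold higher in shBAP1. ERBB3, the neuregulin receptor of melanocytes, was called in neither direction (429, 329.8 and 341 CPM).

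Wnt genes were mixed, more of them higher in shPRAME. Of 23 measured genes 10 were higher in shPRAME (43.5%) and 4 in shBAP1 (17.4%), with a median of 0.78 (0 without a count minimum). The shares of all measured genes were 14.2% and 10.9%. WNT5A, a ligand of noncanonical signalling, stood at 227, 39.7 and 300.1 CPM and was 5.72-fold higher in shPRAME, below the control in both knockdowns. The nuclear factor TCF7L2 was 5.30-fold higher and the secreted antagonist SFRP1, on chromosome 8, 4.69-fold. LGR4, a receptor that amplifies Wnt signals, stood at 2.35, 52.3 and 43.7 CPM and was 22.3-fold (16.4 to 31) higher in shBAP1. CTNNB1 (beta-catenin) was called in neither direction (log2 ratio -0.76).

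Genes tied to the known partners and targets of PRAME and BAP1 were examined next. Retinoic acid genes, which PRAME is known to repress, were called higher in shPRAME more often than in shBAP1. Of 18 measured genes 7 were higher in shPRAME (38.9%) and 1 in shBAP1, with a median of 0.75. Against shEmpty the median was 0.74 in shPRAME and -0.47 in shBAP1. STRA6, the receptor for retinol-binding protein, stood at 325, 1.95 and 51.7 CPM and was 166-fold (116 to 249) higher in shPRAME. PDK4, a mitochondrial kinase induced by retinoids, stood at 207, 15.2 and 62.6 CPM and was 13.6-fold higher. ALDH1A3, which makes retinoic acid, was 3.03-fold higher. ALDH1A1, another retinaldehyde dehydrogenase, stood at 2.73, 12.4 and 15.5 CPM and was 4.53-fold (3.30 to 6.33) higher in shBAP1. CRABP2, which carries retinoic acid to its receptor, was below the minimum with 103, 9 and 14 counts.

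Genes of the machinery around either protein were called at shares near or below those of all measured genes (14.2% higher in shPRAME, 10.9% in shBAP1). Of 20 measured PRAME and CUL2 ligase genes 1 was higher in shPRAME (5%) and 2 were higher in shBAP1 (10%), PRAME itself among them (median -0.29). The CUL2 substrate receptors ZER1 and LRR1 were 2.71-fold higher in shPRAME and 4.02-fold (3.12 to 5.23) higher in shBAP1. Of 16 measured genes of the BAP1 complex 3 were higher in shPRAME (18.8%), BAP1 among them, and 2 in shBAP1 (12.5%, median -0.24). FOXK1, a DNA-binding partner, was 2.45-fold higher in shPRAME, while UCHL5, a related deubiquitinase, was 2.11-fold higher in shBAP1. ASXL1, the cofactor that activates BAP1, and the glycosyltransferase OGT were called in neither direction (log2 ratios -0.49 and -0.07). Of 37 Polycomb subunits 3 were higher in each library (8.11%), with a median of 0.00. CBX7, a chromobox protein of Polycomb repressive complex 1, stood at 23.4, 4.24 and 7.63 CPM and was 5.50-fold (4.22 to 7.29) higher in shPRAME. EZH2, the methyltransferase of complex 2, stood at 29.4, 59.1 and 85.3 CPM and was 2.01-fold higher in shBAP1, with the control above both. Of 26 DNA methylation and histone lysine enzymes 2 were higher in shPRAME (7.69%) and 1 in shBAP1 (3.85%, median 0.09).

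Developmental regulators, many of them known Polycomb targets, gave different pictures for the HOX clusters and for other homeobox genes. Of 24 measured HOX genes 4 were higher in shPRAME and 2 in shBAP1 (16.7% and 8.33%, near the shares of all genes), with a median of 0.38. HOXD13 was the widest, at 3.66, 17.5 and 13.3 CPM and 4.78-fold (3.64 to 6.35) higher in shBAP1. Of 74 listed non-HOX homeobox, T-box and GATA regulators 39 were measured, 20 were higher in shPRAME (51.3%) and 2 in shBAP1, with a median of 1.04 (0.51 without a count minimum). Against shEmpty that list's median was 0.38 in shPRAME and -1.01 in shBAP1, the larger distance being that of shBAP1. PRRX2, a mesenchymal homeobox gene, had 407, 0 and 37 counts and was at least 110.2-fold higher. ALX4, a craniofacial homeobox gene, had 223, 4 and 149 counts and was 45.3-fold (17.4 to 168) higher. TBX3, a T-box repressor, stood at 401, 49.2 and 194 CPM and was 8.14-fold higher, and DLX2, a neural crest regulator, 6.32-fold. PRRX1 was called in neither direction (801, 561 and 549.8 CPM).

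Cancer-testis genes other than PRAME were uneven. Of 15 measured genes (of 50 listed) 6 were higher in shBAP1 (40%), PRAME among them, and 2 in shPRAME, with a median of -0.78. MAGEA1 stood at 2.52, 43.5 and 2.99 CPM and was 17.3-fold (12.8 to 23.9) higher in shBAP1. MAGEB2 had 9, 209 and 2 counts and was 28.6-fold (14.8 to 63.4) higher. Both were scarce in the control as well as in shPRAME. MAGEC1 was 2.52-fold (1.74 to 3.71) higher in shPRAME, and MAGEA4 (306, 531 and 347 CPM) was called in neither direction. MAGE and PAGE genes are close paralogs whose reads the counting could exchange. Among 13 oncofetal genes LIN28B, the repressor of let-7 microRNA, had 22, 447 and 0 counts and was 25.02-fold (16.3 to 40.3) higher in shBAP1, and the imprinted RNA H19 was 7.09-fold (3.79 to 14.7) higher in shPRAME (median -0.33).

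Neuronal and axon guidance genes leaned toward shPRAME. Of 22 measured neuropeptide, synaptic and neuronal genes 10 were higher in shPRAME (45.5%) and 3 in shBAP1, with a median of 0.61 that moved with the count minimum, to 0.31 with none and 2.70 at 200. STMN2, a regulator of neurite microtubules on chromosome 8, had 751, 3 and 1 counts and was 203-fold (69.3 to 988) higher. GAP43, a growth cone protein, stood at 87.6, 2.42 and 5.66 CPM and was 36.1-fold (25.97 to 51.7) higher, and TAC1, the precursor of substance P, stood at 819, 76.3 and 546 CPM and was 10.7-fold higher. TAC1 and ELAVL2 (15.3, 0.472 and 14.9 CPM) were near the control in shPRAME and lower in shBAP1, whereas STMN2 and GAP43 were high in shPRAME alone. PCSK2, a prohormone convertase, had 0, 62 and 176 counts and was at least 25.5-fold higher in shBAP1. Of 40 axon guidance genes 16 were higher in shPRAME (40%) and 3 in shBAP1, with a median of 0.70. The semaphorin receptor PLXNA2 stood at 499, 7.01 and 64.5 CPM and was 71.2-fold higher, and its coreceptor NRP1 was 9.52-fold higher. The ligand SEMA3B was 10.1-fold higher. The related coreceptor NRP2 was called in neither direction (296, 501 and 394 CPM).

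Genes of protein synthesis and respiration differed by small folds, with most members lower in shPRAME. Of 60 cytosolic ribosomal protein genes none was higher in shPRAME and 20 were higher in shBAP1 (33.3%), with a median of -0.86 and values from -1.64 to 0.14. RPS21 stood at 151, 471 and 324 CPM and was 3.11-fold higher in shBAP1. RPL4 was called in neither direction (log2 ratio -0.37). The list's median was -0.71 for shPRAME over shEmpty and 0.18 for shBAP1 over shEmpty. Of 46 nuclear genes of oxidative phosphorylation 9 were higher in shBAP1 (19.6%) and none in shPRAME, with a median of -0.60. PPARGC1A, the coactivator of mitochondrial biogenesis and a known MITF target, stood at 0.656, 21.02 and 9.23 CPM and was 32.02-fold (18.1 to 62.6) higher in shBAP1. The subunits UQCRQ and ATP5J were 2.84-fold and 2.86-fold higher. With trends of transcript length and GC content removed, the medians moved to -0.66 for ribosomal and -0.42 for oxidative phosphorylation genes.

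Iron and redox genes were called mostly toward shBAP1. Of 32 measured NRF2, glutathione and ferroptosis genes 7 were higher in shBAP1 (21.9%) and 1 in shPRAME (median -0.39). Beside FTH1, the ferritin light chain FTL stood at 289, 921 and 494 CPM and was 3.18-fold higher in shBAP1. HMOX1, heme oxygenase, stood at 9.63, 38.8 and 29.1 CPM and was 4.03-fold higher, and the thioredoxin reductase TXNRD1 was 3.05-fold higher. Ferritin chains were highest in shBAP1 with the control between, while TXNRD1 was highest in the control (123, 376 and 479 CPM). NQO1 was called in neither direction (log2 ratio -0.30).

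Other metabolic and stress lists had called members on both sides, beside 14.2% of all measured genes higher in shPRAME and 10.9% in shBAP1. Of 32 glycolysis and hypoxia genes 7 were higher in shPRAME (21.9%) and 2 in shBAP1 (6.25%). Their median of -0.16 and mean of 0.15 differ in sign, as they do over all measured genes (-0.06 and 0.07). The collagen prolyl hydroxylase P4HA2 was 7.43-fold higher in shPRAME, and the glucose transporter SLC2A1 and hexokinase HK2 were 3.07-fold and 3.12-fold higher in shBAP1. Of 32 unfolded protein response and ATF4 genes 4 were higher in each library (12.5%, median 0.10), with PSAT1, of serine synthesis, 3.93-fold higher in shBAP1. Of 31 cholesterol and fatty acid synthesis genes 2 were higher in each library (6.45%, median -0.25). Of 32 lysosomal genes 5 were higher in shPRAME (15.6%) and 1 in shBAP1 (3.13%, median 0.12). NPC2, a cholesterol carrier, was 7.90-fold higher in shPRAME. Of 23 actin contractile and YAP target genes 4 were higher in shPRAME and 3 in shBAP1 (median 0.39). The YAP targets CTGF (44.9, 184 and 30.3 CPM) and AMOTL2 (1.91, 60.8 and 8.33 CPM) were 4.11-fold and 31.8-fold (22.7 to 45.9) higher in shBAP1, while their relative AMOTL1 was 2.57-fold higher in shPRAME.

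In the list of inflammasome, gasdermin and kynurenine genes 3 of 12 measured members were higher in each library (25%, median -0.09). That median turned sign with the count minimum, to 0.90 at a mean count of at least 10 and 0.86 at 200, and the mean of the members was -0.81. The kynurenine pathway enzymes KYNU and QPRT had 31, 1023 and 8 counts and 4, 299 and 1 counts and were 40.6-fold (28.5 to 60.1) and 92.1-fold (35.6 to 340.1) higher in shBAP1. NLRP1, an inflammasome sensor, stood at 27.6, 46.8 and 0.213 CPM and was called in neither direction. It was well above the control in both knockdowns, which the direct ratio does not show.

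Markers were checked for the labelled cell type and for others. Of 13 melanocytic markers 11 were measured, 2 were higher in shPRAME (18.2%) and 6 in shBAP1 (54.5%), with a median of -1.06. Their summed levels ran the other way (4674, 2395 and 2901 CPM), with CSPG4 most of the sum in shPRAME. The melanocytic markers SOX10, MITF, S100A1, S100B and CSPG4 were measured in every library, while TYR, TYRP1, PMEL and MLANA were absent or nearly so from shPRAME and shEmpty. S100B stood at 43.2, 186 and 72.4 CPM and S100A1 at 405, 123 and 196 CPM, called in opposite directions (4.32-fold higher in shBAP1 and 3.28-fold higher in shPRAME). Of 14 fibroblast markers 7 were measured. Of these 5 were higher in shPRAME (71.4%, beside 14.2% of all measured genes) and none in shBAP1, with summed levels of 839, 292 and 82.5 CPM. The defining genes COL1A1 (23, 3 and 1 counts), THY1 (4, 3 and 0) and PDPN (1, 0 and 0) were low, as were DCN (49, 40 and 20), COL3A1 (13, 66 and 1) and POSTN (20, 125 and 0), the last pair with more counts in shBAP1. LUM was measured and called in neither direction (log2 ratio -0.58), and COL1A2 made up most of the sum in shPRAME. The part of such cells in the higher matrix genes of shPRAME was not tested. Of 14 keratinocyte and epithelial markers 4 were measured (summed 138, 134 and 117 CPM), KRT1 and IVL had no count in any library and KRT5 none in the knockdowns. DSP, desmoplakin, stood at 36.6, 0.539 and 17.9 CPM and was 67.9-fold (34.3 to 158) higher in shPRAME. Of 12 endothelial markers 3 were measured (summed 59.1, 90.1 and 129.6 CPM) and CDH5 had no count in any library. Of 14 immune cell markers CD68 alone was measured (144, 61.7 and 49.05 CPM), and CD3D, CD3E, CD163 and FCGR3A had no count in any library. Below the minimum, PTPRC had 52, 32 and 40 counts and LYZ 34, 15 and 3. Of 12 Schwann and neural crest markers 10 were measured. None was higher in shPRAME and 3 were higher in shBAP1 (30%, beside 10.9% of all measured genes). Their summed levels were 1953, 2103 and 1771 CPM. These sums include genes below the count minimum.

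Some chromosomes were shifted as a whole, which bears on the genes they carry. A chromosome could be assigned to 98.9% of measured genes. On chromosome 13 the median log2 ratio of 209 genes was -0.81, 36.4% were called higher in shBAP1 and 82.3% lay below the median of all genes. Against shEmpty its median was -0.63 in shPRAME and 0.14 in shBAP1. On chromosome 8 the median of 432 genes was 0.53 and 28.5% were called higher in shPRAME, with a median of -0.54 for shBAP1 over shEmpty and 0.02 for shPRAME over shEmpty. On chromosome 6 the median of 585 genes was -0.42 and 21.5% were called higher in shBAP1, with a median of 0.40 for shBAP1 over shEmpty. No other chromosome lay over 0.3 from the median of all genes. Ratios of genes on chromosomes 6, 8 and 13 include these shifts, whose origin was not tested. The ratios of DCT (-8.42), COL22A1 (12.21) and HLA-DRA (-9.77) are many times larger than the medians of their chromosomes. Those of EDNRB (-1.30) and BRCA2 (-1.86), on chromosome 13, and of CTSB (2.70), on chromosome 8, are not as far from them. SERTM1 and SMAD9, on chromosome 13, were higher in shPRAME against the shift of their chromosome.

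**Figure D5:**
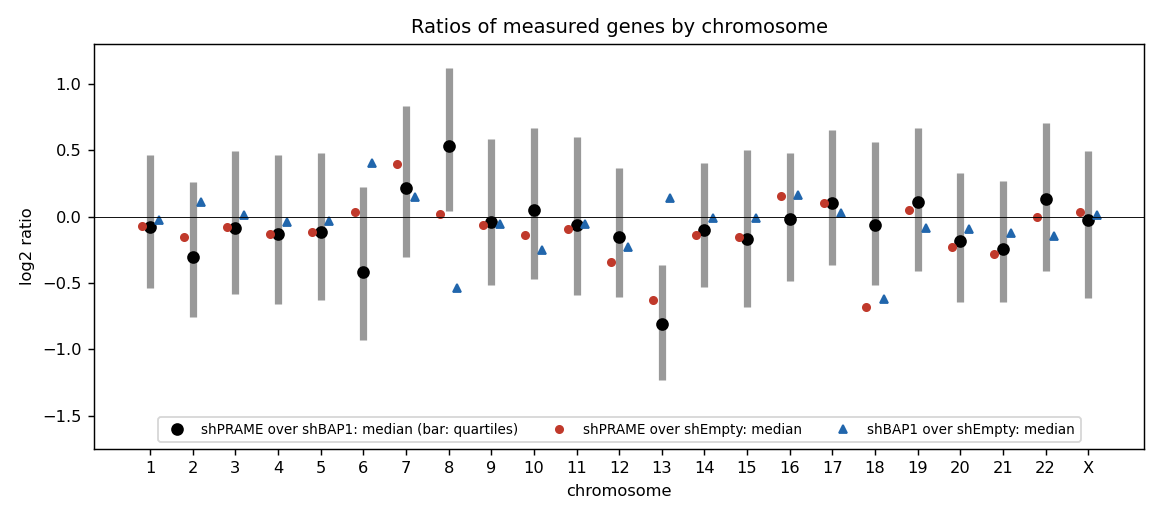
Median log2 ratio of the measured genes of each chromosome for shPRAME over shBAP1 (black circles, with grey bars from the lower to the upper quartile), shPRAME over shEmpty (red circles) and shBAP1 over shEmpty (blue triangles). Chromosome 13 stands at -0.81, 8 at 0.53 and 6 at -0.42; the black shift follows shPRAME on chromosome 13 and shBAP1 on chromosomes 8 and 6.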

How the data were processed

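Messenger RNA of 3 A375SM populations was sequenced as 1 library each. The authors deposited whole-number counts per gene symbol, with 1 column per library and no unused per-sample columns (0). FastQC, TopHat, Cufflinks and edgeR and the hg19 (GRCh37) build are named per the submitters' processing notes. For the read counter, its annotation and its use of strand, nothing was stated in the labels (not given in the sources used here).

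Counts were scaled by TMM over the 3 libraries (edgeR 4.0.16 in R 4.3.3) and expressed as CPM. The count minimum for a measured gene was a mean of 50 over the 3 libraries. The ratio of the knockdown libraries was given with its exact conditional 95% binomial interval (Python 3.11.15, numpy 2.4.6, scipy 1.17.1, pandas 2.3.3), and a gene was called at 2-fold with an interval that left out no change. With 1 library a group there was no test across replicates and no p-value. Total counts of 14181829 to 19430130 set the precision, and intervals cover counting error only. The calling steps were checked on simulated data.

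Named genes were, in each list, the 6 with the largest absolute log2 ratio and the 3 with the highest mean CPM (every measured member of lists with 12 or fewer), the members below the minimum with at least 30 counts in either knockdown library, the 15 ranked in each direction by the interval bound nearest to no change, the 10 with the largest CPM difference in each direction and 3 from each family of at least 10 genes. Some genes are not reported here. Some genes outside that rule are named as chosen after their values were seen, or to complete the called members of a list. The members and lists were chosen with earlier results of these data known. RefSeq and GENCODE tables of GRCh38 gave chromosomes, lengths, GC content and promoters by symbol only.

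Alternatives were other scalings (total count, upper quartile, TMM over the knockdown libraries alone, DESeq2 1.42.0 size factors), count minimums, fold limits, a pseudocount, removal of length and GC trends (statsmodels 0.14.6), means in place of medians and, chosen after seeing the data, subtraction of chromosome medians. Figures were drawn with matplotlib 3.10.9.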

Additional observations from a re-analysis of the deposited data

How the results depend on the processing

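No paired analysis was possible because each group had 1 library, and for the same reason no library could be left out. The log2 ratio of PRAME, -2.08, was -2.16 with total count scaling and -2.28 with chromosome medians subtracted, an alternative chosen after seeing the data. That of BAP1, 1.48, was 1.15 with length and GC trends removed. Without a count minimum 4727 genes were called, 2670 higher in shPRAME and 2057 higher in shBAP1. At 1.5-fold the counts were 5749, 2844 and 2905, and at 3-fold they were 1361, 920 and 441, of which 67.6% were higher in shPRAME. With the whole interval beyond 2-fold, 2148 genes were called, 1280 higher in shPRAME and 868 higher in shBAP1. Fewer or more genes are called by construction at these limits. The list of D-type cyclins and CDK inhibitors had a mean of 0.060 beside its median of -0.40. Without a count minimum the medians of the collagen, receptor tyrosine kinase and Wnt lists were 0.29, 0.38 and 0, beside 1.29, 0.97 and 0.78, and those of the neuronal, homeobox and cell adhesion lists 0.31, 0.51 and 0.37, beside 0.61, 1.04 and 0.70. At a mean count of at least 200 the neuronal median was 2.70 and that of MHC class II -1.03, beside -1.81. The inflammasome and kynurenine median, -0.09, was 0.90 at a mean count of at least 10. Total count scaling moved the median of all genes to -0.14 and the share of calls higher in shPRAME from 56.6% to 50.1%. Depth limits ratios on few counts, whose intervals are wide. Of the folds printed for called genes, those of TNC (log2 ratio 0.96 with total count scaling), CENPF (-0.99 with TMM over the knockdown libraries) and EZH2 (-0.97 with TMM over the knockdown libraries, -0.99 with upper-quartile scaling and -0.98 with DESeq2 size factors) fell inside 2-fold under another scaling, and EZH2 did (-0.98) with a pseudocount of 1 CPM. With length and GC trends removed so did those of TNC (0.82), EEF1A1 (-0.97), HSPA8 (-0.83), NPM1 (-0.76), FOXK1 (0.90), EZH2 (-0.84) and MITF (-0.98), and with chromosome medians subtracted those of EEF1A1 (-0.72), EDNRB (-0.55) and TAP2 (-0.87).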

Other observations

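Gene families grouped by symbol, some sharing genes with the lists, were also described. Their shares are to be read beside those of all measured genes (14.2% higher in shPRAME, 10.9% in shBAP1). Among regulators of G protein signalling (symbols beginning with RGS) 4 of 11 measured genes were higher in shPRAME (36.4%) and 1 in shBAP1 (9.09%). Their median log2 ratio was 0.78. RGS4 stood at 578, 4.11 and 29.2 CPM and was 141-fold (109 to 184) higher in shPRAME. RGS5, a pericyte gene, stood at 252, 4.65 and 3.68 CPM and was 54.2-fold (42.7 to 69.8) higher, whereas RGS16 stood at 9.08, 97.3 and 9.93 CPM and was 10.7-fold higher in shBAP1. Of 38 protocadherins 13 were higher in shPRAME (34.2%) and 2 in shBAP1 (5.26%), with a median of 0.52. Most of the 13 came from the beta cluster on chromosome 5. PCDHB2 stood at 43.1, 10.8 and 30.9 CPM and was 3.97-fold higher, and the reads of these paralogs may be exchanged. Of 13 genes whose symbols begin with FGF 7 were higher in shPRAME (53.8%) and 1, FGFR1OP, in shBAP1 (7.69%), with a median of 2.34. Among the 7 were FGF12 (10.8, 1.01 and 4.59 CPM) and the receptor FGFR3 (7.88, 0.472 and 1.92 CPM). FGFR1, FGFR3 and FGFR4 are also counted in the receptor tyrosine kinase list. Symbols beginning with KCN cover potassium channel subunits, their regulators and the antisense RNA KCNQ1OT1. Of 19 such genes 9 were higher in shPRAME (47.4%, KCNQ1OT1 among them) and 4 in shBAP1 (21.1%). KCNC4 was 6.87-fold (5.51 to 8.66) higher in shPRAME and KCNS3 30.9-fold (18.5 to 55.7) higher in shBAP1. SLC4A8 and SLC8A1, a bicarbonate transporter and the sodium-calcium exchanger, were 70.6-fold (23.9 to 345) and 77.1-fold (13.5 to 3078) higher in shPRAME, and both stood near or above that level in the control.

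In some families of RNA and protein synthesis and turnover no measured member was higher in shPRAME. Of all measured genes 10.9% were higher in shBAP1. Of 15 small nucleolar RNA host genes 6 were higher in shBAP1 (40%, median -0.82). SNHG5, on chromosome 6, stood at 41.95, 136 and 56.1 CPM and was 3.25-fold higher. Of 49 genes whose symbols begin with MRPL, mitochondrial large-subunit ribosomal proteins and the pseudogene MRPL45P2, 8 were higher in shBAP1 (16.3%, MRPL45P2 among them, median -0.50). Of 46 genes whose symbols begin with PSM, most of them proteasome subunits, 3 were higher in shBAP1 (6.52%, below the share of all genes, median -0.45). Among tubulins TUBB4A stood at 0.164, 19 and 1.12 CPM and was 116-fold (39.2 to 565) higher in shBAP1, and TUBB6, at 33.5, 90.3 and 240.0 CPM, was 2.70-fold higher with the control above both. Zinc finger genes (symbols beginning with ZNF) were nearly balanced, with 34 of 400 higher in shPRAME (8.5%) and 38 in shBAP1 (9.5%). ZNF208 was the widest of those named, at 3.39, 90.7 and 0.907 CPM and 26.7-fold (20.7 to 35.1) higher in shBAP1.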
